A study of Mus musculus with 7 samples.

Results

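The genes described here encode subunits of GATOR1, GATOR2 and the folliculin complex, which act upstream of the growth kinase complex mTORC1. They are 10 genes of the 19938 tested, *Nprl3*, *Nprl2*, *Depdc5*, *Mios*, *Wdr24*, *Wdr59*, *Seh1l*, *Flcn*, *Fnip1* and *Fnip2*. They were taken by gene symbol, and each has 1 probe set that carries no other symbol. The set was chosen by measured values of this same comparison, the lower signals of *Nprl3* and *Fnip2* after miR-709, with the other subunits added as their partners. The differences of all 10 genes between treatments are therefore a description and carry no test.

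Primary hepatocytes of C57BL/6J mice received 1 µg of the miR-709 mimic, or the same amount of the worm miRNA Cel-239b as a control, with the transfection reagent Metafectene-Pro. Total RNA was taken 24 h later and hybridised to Affymetrix Mouse Gene 1.0 ST arrays, with 4 arrays for miR-709 (replicates A to D) and 3 for Cel-239b (replicates B to D). miR-709 is a miRNA that mouse hepatocytes also express themselves, and the cells were purified on Percoll. Neither the labels nor the methods say whether the replicates came from separate mice or isolations, so the p-values rest on the spread among the 7 arrays alone, which may be technical.

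GATOR1 switches off the RagA and RagB GTPases at the lysosome and thereby restrains mTORC1 when amino acids are scarce, and GATOR2 opposes it. Folliculin, bound to either of its partners Fnip1 and Fnip2, acts on RagC and RagD, and this step lets mTORC1 phosphorylate the transcription factors TFEB and TFE3, which otherwise enter the nucleus and switch on lysosome and autophagy genes. In the liver this machinery joins amino acid supply to growth, autophagy and lipid metabolism.

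The values are log2 signals made by RMA, a procedure that corrects background, equalises the distribution of signals over arrays and combines the probes of a gene. They compare arrays for 1 gene and do not rank different genes by abundance. Across the arrays the median log2 signal was 5.04 to 5.07, and arrays correlated at 0.9965 to 0.9979 within a treatment and at 0.9951 to 0.9966 between treatments. A gene counts as called, lower or higher after miR-709, when limma, a linear model with moderated variances, gave an adjusted p under 0.05 after Benjamini-Hochberg adjustment over the 19938 genes. By this rule 293 genes were lower and 361 were higher, and the median log2 difference of all genes was 0.01. Markers of hepatocytes (5 of 5 measured, *Alb*, *Ttr*, *Apoa1*, *Cyp2e1* and *Tat*) had mean log2 signals of 9.29 to 13.47 and a summed linear signal of 28800 to 30500 on miR-709 arrays and 29000 to 29300 on Cel-239b arrays. The sum is carried by the brightest markers. *Tat*, an enzyme of tyrosine breakdown, was called higher (log2 difference 0.62, standard error 0.09, limma adjusted p = 0.00763, and 0.0521 without miR-709 replicates C and D, within 0.00239 to 0.105 over all alternatives), and *Cyp2e1* had a log2 difference of 0.25 without overlap (limma adjusted p = 0.128). The 7 interferon-response genes measured stood apart on 2 arrays. Relative to the Cel-239b mean, their mean log2 signal was -0.24, -0.13, 1.22 and 1.18 on miR-709 replicates A, B, C and D, against -0.26, -0.06 and 0.32 on Cel-239b replicates B, C and D. Results that rest on miR-709 replicates C and D are therefore also given without them.

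Of the 10 genes, 3 were called lower with miR-709 (*Nprl3*, *Fnip2* and *Flcn*), beside 1.47% of all genes tested. None of the 10 was called higher by limma, beside 1.81% of all genes tested (3.28% in either direction), or by the unmoderated form of the same model that the methods name (the methods' t-test), although the 95% interval of *Seh1l* lay above 0. The arrays of both treatments did not overlap for 4 genes. Such a separation was found for 12.3% of all genes tested. The 4 were the 3 lower ones, beside 4.91% of all genes separated in that direction, and *Seh1l*, beside 7.44% separated in the other. The genes were chosen with these values known, so nothing is read from these counts. The median log2 difference was 0.06 over the 10 genes, -0.01 over GATOR1, 0.10 over the 4 GATOR2 genes and -0.48 over the folliculin complex.

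**Figure D1:**
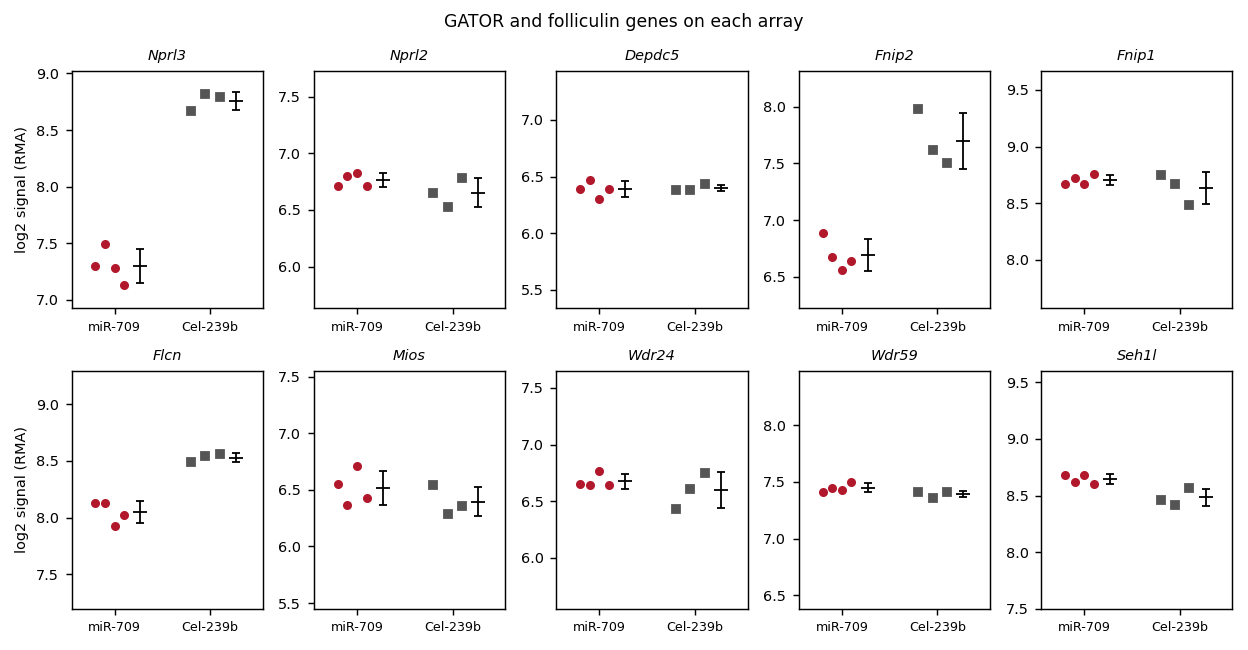
Log2 signal (RMA, y axis, the same span in every panel) of the 10 GATOR and folliculin genes on each array, miR-709 (red circles, n = 4, replicates A to D from left to right) and Cel-239b (grey squares, n = 3, replicates B to D), with the mean and SD as a bar beside the points. The red circles lie wholly below the grey squares for Nprl3, Fnip2 and Flcn, while the circles lie above the squares for Seh1l and the other 6 genes overlap.

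*Nprl3* encodes a structural subunit of GATOR1 that forms a dimer with Nprl2 (probe set 10385004, whose older name is *Mare*). Its log2 signal was 7.30, 7.49, 7.28 and 7.13 on miR-709 replicates A to D, against 8.67, 8.82 and 8.79 on Cel-239b replicates B to D. Every miR-709 array lay more than 1 log2 unit below every Cel-239b array, and miR-709 replicates C and D were the lowest. Without these replicates the log2 difference was -1.36, and *Nprl3* was still called. Since the gene was chosen for its lower signal, this call is only a description. *Nprl3* averaged 7.30 ± 0.15 with miR-709 (SD, n = 4) and 8.76 ± 0.08 with Cel-239b (SD, n = 3). The log2 difference was -1.46 (standard error 0.09, 95% interval -1.65 to -1.27), that is 2.75-fold lower, which made *Nprl3* the member with the largest difference.

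*Nprl2*, its partner in the dimer and the catalytic subunit (probe set 10588642), had log2 signals of 6.71, 6.80, 6.83 and 6.71 with miR-709, against 6.65, 6.53 and 6.78 with Cel-239b. The treatments overlapped. The log2 difference was 0.11 (standard error 0.07, 95% interval -0.05 to 0.27). *Depdc5*, the subunit through which GATOR1 binds the Rag GTPases (probe set 10520982), had log2 signals of 6.39, 6.47, 6.30 and 6.39 with miR-709, against 6.38, 6.38 and 6.43 with Cel-239b. Here the Cel-239b arrays fell inside the range of the miR-709 arrays, and the log2 difference was -0.01 (95% interval -0.14 to 0.12). Within GATOR1, the interval of *Nprl3* thus lay wholly below the intervals of both partners. Since *Nprl3* was chosen for its lower signal, this is only a description.

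The GATOR2 genes differed little between treatments. *Mios*, whose product is a scaffold of the complex, had log2 signals of 6.55, 6.37, 6.71 and 6.43 with miR-709, against 6.54, 6.29 and 6.36 with Cel-239b (log2 difference 0.12, 95% interval -0.09 to 0.33). *Wdr24*, whose product is needed for GATOR2 activity, had 6.65, 6.64, 6.77 and 6.64 with miR-709, against 6.43, 6.61 and 6.75 with Cel-239b (log2 difference 0.08, 95% interval -0.10 to 0.26). For both genes the arrays of the treatments overlapped. *Wdr59*, the gene of another scaffold subunit, had 7.41, 7.45, 7.43 and 7.50 with miR-709, against 7.41, 7.36 and 7.41 with Cel-239b (log2 difference 0.05, 95% interval -0.07 to 0.17). Its values lay within a narrow band on all 7 arrays, and 1 miR-709 array reached down to the level of 2 Cel-239b arrays.

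*Seh1l*, which encodes a protein shared by GATOR2 and the nuclear pore, had log2 signals of 8.68, 8.62, 8.68 and 8.60 with miR-709, against 8.46, 8.42 and 8.57 with Cel-239b. Every miR-709 array was higher than every Cel-239b array, the closest being 8.60 and 8.57. The log2 difference was 0.16 (standard error 0.06, 95% interval 0.03 to 0.30), or 1.12-fold, and the gene was not called. *Sec13*, the other subunit that GATOR2 shares with the nuclear pore and not one of the 10 genes, had 8.79, 8.87, 8.74 and 8.81 with miR-709, against 8.93, 8.79 and 8.83 with Cel-239b. It did not pass the test (log2 difference -0.05, standard error 0.06, 95% interval -0.18 to 0.09, limma adjusted p = 0.78), and its arrays overlapped.

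*Flcn* encodes folliculin, the catalytic subunit for RagC and RagD (probe set 10386427). Its log2 signal was 8.13, 8.13, 7.93 and 8.02 on miR-709 replicates A to D, against 8.49, 8.54 and 8.56 on Cel-239b replicates B to D. The treatments did not overlap, and the lowest values were those of miR-709 replicates C and D. *Flcn* averaged 8.05 ± 0.10 with miR-709 (SD, n = 4) and 8.53 ± 0.04 with Cel-239b (SD, n = 3), a log2 difference of -0.48 (standard error 0.07, 95% interval -0.63 to -0.33), or 1.39-fold lower. Without miR-709 replicates C and D, on which interferon genes were higher, the log2 difference was -0.40 and the gene was no longer called. That setting has fewer arrays, and over all genes the calls fell from 293 lower and 361 higher to 92 and 76. Why the call was lost was not tested.

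*Fnip2*, 1 of the 2 genes of folliculin partners (probe set 10498827), had log2 signals of 6.89, 6.67, 6.56 and 6.64 on miR-709 replicates A to D, against 7.98, 7.62 and 7.50 on Cel-239b replicates B to D. The treatments did not overlap, and miR-709 replicate A and Cel-239b replicate B stood highest in their groups. The lowest values were again those of miR-709 replicates C and D. *Fnip2* averaged 6.69 ± 0.14 with miR-709 (SD, n = 4) and 7.70 ± 0.25 with Cel-239b (SD, n = 3). The log2 difference was -1.01 (standard error 0.12, 95% interval -1.28 to -0.74), or 2.01-fold lower. It was -0.87 without Cel-239b replicate B, where it was still called, and -0.92 without miR-709 replicates C and D, where it was not. These calls describe a gene chosen for its lower signal.

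*Fnip1*, the paralog of *Fnip2* (probe set 10376144), had log2 signals of 8.67, 8.72, 8.67 and 8.76 with miR-709, against 8.75, 8.67 and 8.48 with Cel-239b. The arrays overlapped, and the log2 difference was 0.07 (standard error 0.07, 95% interval -0.09 to 0.23). Its interval and that of *Fnip2*, which was chosen for its lower signal, had no value in common, and this too is only a description. The 7 genes not called had log2 differences of -0.01 to 0.16, with 95% intervals that together ran from -0.14 to 0.33, so that a change above 1.26-fold in either direction lay outside all 7 intervals. In bulk RNA, fewer cells of a type and less RNA per cell cannot be told apart.

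**Figure D2:**
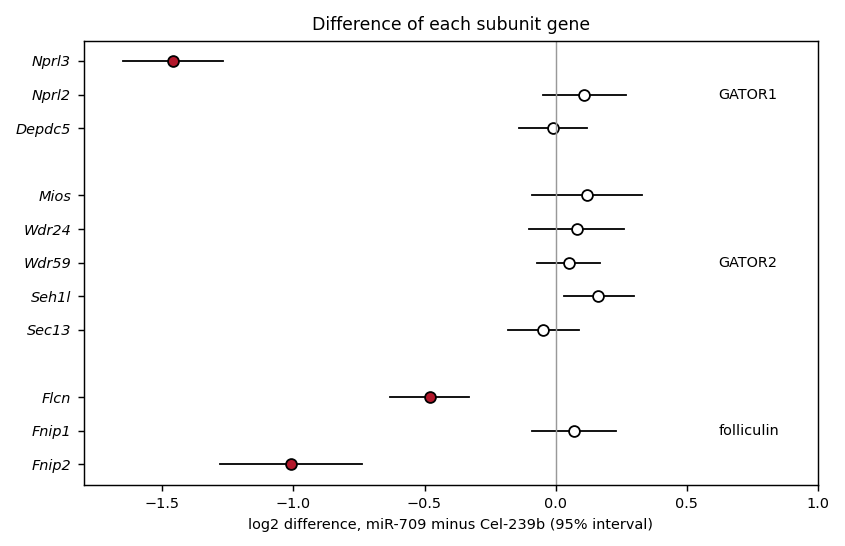
Log2 difference, miR-709 minus Cel-239b (x axis), of each subunit gene with its 95% interval, in the order GATOR1, GATOR2 (with Sec13 added) and folliculin complex. Filled circles mark genes called lower by limma. Nprl3 at -1.46, Fnip2 at -1.01 and Flcn at -0.48 stand left of 0 while the other genes lie between -0.05 and 0.16.

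The factors TFEB and TFE3 can bind the letters CACGTG, which read the same on both strands. These letters were looked for in promoters of the 10 genes and of the called pathway genes. RefSeq promoters of the GRCm38.p6 build (windows that run mostly before a gene's start) were found for 8 of the 10 genes and for 5 of the 7 called pathway genes described below. The letters CACGTG occur in 7.15% of the 32851 promoters in that set. Among the matched genes they occur in *Fnip1* and in *Gla*, the gene of a lysosomal enzyme, which holds them at a pair of places. The windows of 30 bases shown here have the letters in capitals, and positions are counted from the start site that the RefSeq promoter set uses.
Fnip1 promoter, chr11:54438092-54438121, plus strand, with the motif starting 75 bases before the start site: tcagtttgctgcCACGTGatacggctcgtc
Gla promoter, chrX:134601215-134601244, minus strand, with the motif starting 227 bases before the start site: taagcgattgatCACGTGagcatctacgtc
Gla promoter, chrX:134601182-134601211, minus strand, with the motif starting 194 bases before the start site: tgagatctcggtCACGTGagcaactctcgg
The promoters of *Nprl3*, *Flcn* and *Fnip2*, the 3 genes called lower, do not hold these letters in this window. Neither do those of *Gpnmb*, *Sqstm1*, *Tpp1* and *Lamp2*, lysosome genes called higher. A link between the letters and the direction of a difference was not tested. *Gla* was higher with miR-709, and *Fnip1* did not differ beyond the spread between arrays.

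*Fnip1* and *Fnip2* share another run of letters, GTCATATGAC, which also reads the same on both strands and does not overlap CACGTG. It is the longest stretch of that kind that both promoters share, was looked for after the sequences had been seen, and occurs in 14 of the 32851 promoters (0.0426%). The windows show how the paralogs, of which *Fnip2* was lower and *Fnip1* was not called, both carry it.
Fnip2 promoter, chr3:79567766-79567795, minus strand, with the motif starting 106 bases before the start site: ggccggctccGTCATATGACcggccggcgg
Fnip1 promoter, chr11:54438185-54438214, plus strand, with the motif starting at base 17 after the start site: actaatttctGTCATATGACtgaggcgccc
A match of letters is a description of the sequence and does not show a bound site.

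The genes that lie beside *Nprl3* and *Fnip2* on the chromosome were set beside them. Introns of *Nprl3* on chromosome 11 hold enhancers of the neighbouring alpha-globin genes in mouse. Of the 6 nearest genes with a probe set of their own, the log2 differences ran from -0.08 to 0.29, against -1.46 for *Nprl3*. The globin genes *Hba-x*, *Hbq1b* and *Hbq1a* had log2 differences of 0.21, 0.09 and 0.20 and did not pass the test. Their mean log2 signals over all arrays, 4.41, 4.99 and 3.20, lay below the median of all genes (5.36 to 5.38 per array), so that little room was left for a lower value and they are no measure of the region. *Rhbdf1*, the gene of an inactive rhomboid protease, had log2 signals of 7.41, 7.34, 7.41 and 7.38 with miR-709, against 7.21, 7.01 and 7.07 with Cel-239b. All miR-709 arrays lay above the Cel-239b arrays, with a log2 difference of 0.29 (standard error 0.06, limma adjusted p = 0.0422). This call was lost when any array but Cel-239b replicate B was left out (adjusted p 0.0843 to 0.155 over the 6 arrays), and the adjusted p ran from 0.0164 to 0.259 over all alternatives. *Snrnp25* and *Mpg*, on the same side as *Rhbdf1*, had log2 differences of -0.03 and -0.08.

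Around *Fnip2* on chromosome 3, none of the 6 nearest genes was called by limma, and 1 had an unadjusted p under 0.05. This was *Rapgef2*, an exchange factor for the GTPase Rap1 (log2 difference 0.29, limma adjusted p = 0.247). The methods' t-test called none of the 6 either. The log2 differences of the 6 genes ran from -0.07 to 0.29, against -1.01 for *Fnip2*. The nearest on each side, *Gm17359* and *4930589L23Rik*, and *Fstl5* had mean log2 signals of only 3.64, 3.37 and 3.07, below the median of all genes, and their differences near 0 are likewise no measure of the region. Of the brighter neighbours, *Ppid* and *Etfdh* had log2 differences of 0.10 and -0.01.

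**Figure D3:**
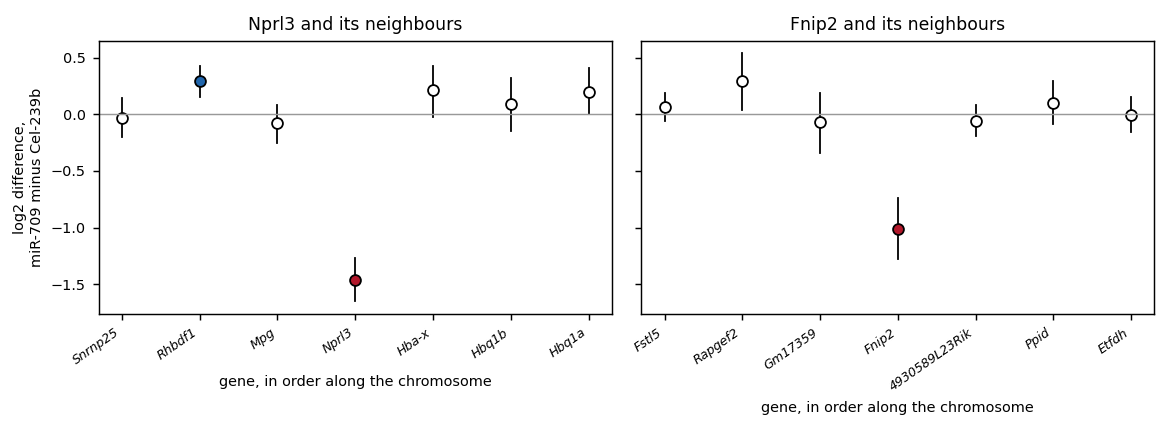
Log2 difference, miR-709 minus Cel-239b, with its 95% interval (y axis), of Nprl3, Fnip2 and the 3 genes with a probe set on each side, in chromosome order without scale (x axis). Filled circles mark genes called by limma, red for lower and blue for higher. The neighbours lie between -0.08 and 0.29, while Nprl3 lies at -1.46 and Fnip2 at -1.01, but 6 of the 12 neighbours (Hba-x, Hbq1b, Hbq1a, Fstl5, Gm17359 and 4930589L23Rik) had signals below the median of all genes.

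The genes whose pattern over the 7 arrays lay nearest to *Nprl3*, by Euclidean distance of log2 signals taken relative to the Cel-239b mean, were *Nop16*, a nucleolar protein gene, *Thbs1*, which encodes the matrix protein thrombospondin 1, and *Slc35e1*, of a family of nucleotide sugar transporters. Their distances were 0.279, 0.333 and 0.359, and their log2 differences -1.45, -1.42 and -1.56. Those nearest to *Fnip2* were *Akap13*, which encodes an anchoring protein of protein kinase A, *Itga5*, the fibronectin receptor integrin alpha 5, and *Nucks1*, a nuclear phosphoprotein gene. Their distances were 0.181, 0.281 and 0.306, and their log2 differences -0.99, -0.96 and -0.97. These genes share with *Nprl3* or *Fnip2* the contrast that sets the pattern, so the likeness is a description.

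Beyond the 10 genes, 77 of 82 other genes written down for nutrient sensing and the lysosome were measured. Of these, 1 was lower (beside 1.47% of all genes tested), 6 were higher (beside 1.81%) and 70 did not pass the test. The lists of KICSTOR subunits, amino acid sensors, the TSC complex with Rheb, mTORC1 substrates, AMPK subunits and the C9orf72 complex together held 37 measured genes, of which limma and the methods' t-test each called 0. An unadjusted limma p under 0.05 was found for 11 of the 37, beside 15.0% of all genes tested. Most of the 37 were brighter than the median of all genes, and the lists were written with earlier results of these data known. Nothing is therefore read from this share. These lists hold the genes of the transcription factors themselves. *Tfeb* had a log2 difference of -0.05 (95% interval -0.23 to 0.13) and *Tfe3* of 0.12 (95% interval -0.05 to 0.28), and neither passed the test. *Sesn2*, a leucine sensor that binds GATOR2, had -0.30 (95% interval -0.51 to -0.09, limma adjusted p = 0.157), and *Castor2*, of the arginine sensor family, had -0.29 (95% interval -0.47 to -0.11, limma adjusted p = 0.11). These 4 genes were named after their values were seen.

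**Figure D4:**
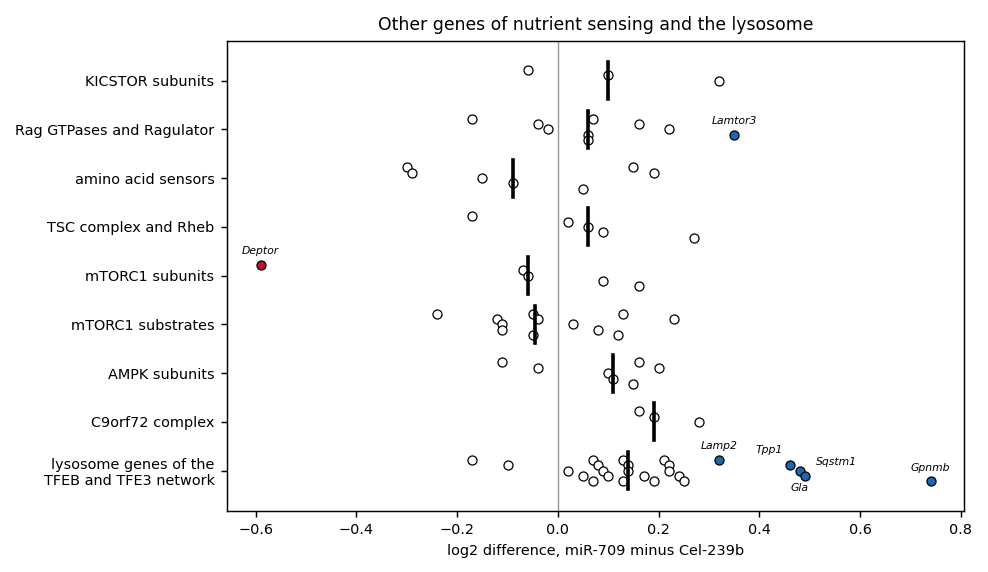
Log2 difference, miR-709 minus Cel-239b (x axis), of the measured pathway genes outside the 10, by list, with the list's median as a vertical bar. Sec13 and the interferon-response genes are not shown. Filled circles mark genes called by limma, red for lower (Deptor at -0.59) and blue for higher. In the list of lysosome genes 23 of 25 circles lie right of 0.

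*Deptor*, which encodes an inhibitory subunit of the mTOR complexes, was the only gene called lower among the 77. Its log2 signal was 7.93, 7.86, 7.69 and 7.75 with miR-709, against 8.47, 8.39 and 8.34 with Cel-239b. The treatments did not overlap. The log2 difference was -0.59 (standard error 0.07, 95% interval -0.75 to -0.43, limma adjusted p = 0.00224), or 1.51-fold lower. It was called in all 20 alternatives (adjusted p 0.000649 to 0.0463). The other 4 mTORC1 subunits measured did not pass. *Mtor* itself had a log2 difference of -0.06 and *Rptor*, the scaffold that binds substrates, of -0.07.

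*Lamtor3*, of the Ragulator complex that holds the Rag GTPases on the lysosome, was the 1 gene called among 9 of the Rag GTPases and Ragulator. It had log2 signals of 9.49, 9.57, 9.35 and 9.44 with miR-709, against 9.18, 9.10 and 9.05 with Cel-239b. All miR-709 arrays were higher (log2 difference 0.35, standard error 0.07, limma adjusted p = 0.0236). This call was lost without miR-709 replicate A, B or D or Cel-239b replicate C or D (adjusted p 0.0649 to 0.0994), and over all alternatives the adjusted p ran from 0.00841 to 0.105. The Rag GTPase genes had log2 differences of 0.07 for *Rraga*, -0.02 for *Rragb*, 0.16 for *Rragc* and 0.06 for *Rragd*.

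Lysosome genes of the TFEB and TFE3 network mostly had differences above 0. Of 25 measured, 5 were called higher (beside 1.81% of all genes tested), 0 lower (beside 1.47%) and 20 did not pass, while 14 had an unadjusted p under 0.05, beside 15.0% of all genes tested. The difference was above 0 for 23 of the 25 (92.0%), beside 54.9% of all genes, and the list's median log2 difference was 0.14, beside 0.01 over all genes. All 25 had a mean log2 signal of at least 6, unlike many of the genes they are set beside. The shares of all genes given above are therefore not those of genes this bright. The list was also written with earlier results of these data known. Among the 8638 genes that bright, the median log2 difference was 0.03. In that set limma called 555 of the 8638 genes higher, and 7 of the 25 in this list. The mean of the 25 genes relative to the Cel-239b mean was 0.20, 0.21, 0.18 and 0.18 on miR-709 replicates A to D, against -0.05, 0.01 and 0.04 on Cel-239b replicates B to D. The miR-709 arrays all lay above the Cel-239b arrays, and replicates C and D did not stand apart. The median was 0.10 after cyclic loess and 0.12 after a further quantile normalization. The count of 5 fell to 3 without miR-709 replicate C or D or without Cel-239b replicate D, to 1 without miR-709 replicates C and D together, and to 0 with the methods' t-test.

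*Gpnmb*, a membrane glycoprotein of lysosomes and melanosomes, had log2 signals of 7.74, 7.67, 7.66 and 7.43 with miR-709, against 6.76, 6.86 and 7.03 with Cel-239b. The treatments did not overlap, and the log2 difference was 0.74 (standard error 0.09, 95% interval 0.54 to 0.95, limma adjusted p = 0.00229), or 1.67-fold. Macrophages also express *Gpnmb*. The 5 Kupffer cell and leukocyte markers had mean log2 signals of 3.06 to 4.57, and their summed linear signal was 74.0 to 82.1 on miR-709 arrays and 71.1 to 78.8 on Cel-239b arrays. Markers this dim are a weak measure of these cells, and their part in the result for *Gpnmb* was not tested. *Gpnmb* kept its call in 19 of 20 alternatives (adjusted p 0.000647 to 0.0611 over them).

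*Sqstm1* encodes p62, a receptor that delivers cargo to autophagosomes. It had log2 signals of 12.48, 12.42, 12.71 and 12.69 with miR-709, against 12.00, 12.20 and 12.05 with Cel-239b. All miR-709 arrays were higher, and replicates C and D, those with higher interferon genes, were the highest. The log2 difference was 0.49 (standard error 0.09, limma adjusted p = 0.0169). The call was lost without miR-709 replicate C or D or Cel-239b replicate B or D (adjusted p 0.0554 to 0.0856) and without miR-709 replicates C and D together (log2 difference 0.37, adjusted p = 0.138), and the adjusted p ran from 0.00557 to 0.143 over all alternatives. The part of the interferon genes in this result was not tested.

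*Gla*, which encodes the glycolipid-cleaving enzyme alpha-galactosidase A, had log2 signals of 8.96, 8.98, 9.13 and 8.92 with miR-709, against 8.48, 8.46 and 8.62 with Cel-239b (log2 difference 0.48, standard error 0.07, limma adjusted p = 0.00654). *Tpp1*, which encodes the protease tripeptidyl peptidase 1, had 10.87, 10.76, 10.78 and 10.77 with miR-709, against 10.19, 10.37 and 10.44 with Cel-239b (log2 difference 0.46, standard error 0.07, limma adjusted p = 0.00767). Neither gene's arrays overlapped, and both kept their call when any 1 array was left out. Without miR-709 replicates C and D the adjusted p was 0.0729 for *Gla* and 0.109 for *Tpp1*, the highest of their alternatives. *Lamp2*, the gene of a major lysosome membrane protein, named after its values were seen, had 10.65, 10.71, 10.76 and 10.76 with miR-709, against 10.50, 10.31 and 10.38 with Cel-239b (log2 difference 0.32, standard error 0.06, limma adjusted p = 0.0274). Its call was lost without miR-709 replicate B, C or D or Cel-239b replicate C or D (adjusted p 0.0745 to 0.111), and the adjusted p ran from 0.0102 to 0.23 over all alternatives.

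**Figure D5:**
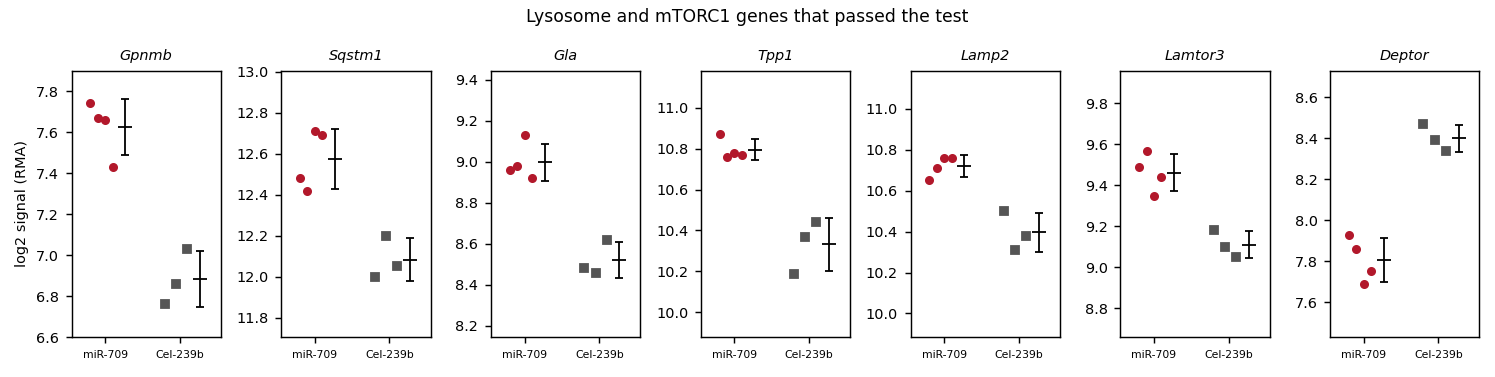
Log2 signal (RMA, y axis, the same span in every panel) on each array of the 7 pathway genes outside the 10 that limma called, miR-709 (red circles, n = 4, replicates A to D from left to right) and Cel-239b (grey squares, n = 3, replicates B to D), with the mean and SD as a bar beside the points. The circles lie wholly above the squares for Gpnmb, Sqstm1, Gla, Tpp1, Lamp2 and Lamtor3 and wholly below them for Deptor.

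The lysosome genes that did not pass included *Lamp1*, the gene of the other major lysosome membrane protein, with a log2 difference of 0.02, *Ctsd*, the gene of the protease cathepsin D, with 0.14, and *Atp6v0d1*, of the proton pump, with 0.25 (limma adjusted p = 0.0657). *Atp6v1h*, another pump subunit gene, at -0.10, and *Wipi1*, which acts in autophagosome formation, at -0.17, were the 2 genes with a difference below 0. These 5 genes were named after their values were seen.

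Other liver cell types were sought through their markers. The summed linear signal of the sinusoidal endothelial markers (5 of 5 measured) was 162 to 168 on miR-709 arrays and 155 to 171 on Cel-239b arrays, and that of the stellate cell markers (5 of 5) was 162 to 174 on miR-709 arrays and 171 to 196 on Cel-239b arrays. These markers were dim, with mean log2 signals of 3.91 to 5.65 (endothelial) and 3.84 to 6.10 (stellate). Their sums are therefore a weak measure of these cells. The cholangiocyte markers (4 of 5 measured) summed to 463 to 776 on miR-709 arrays and 1020 to 1160 on Cel-239b arrays, and this sum is carried by *Krt19*, a keratin of bile duct cells and the 1 of the 4 called lower. *Krt19* had log2 signals of 8.97, 8.73, 7.91 and 7.79 on miR-709 replicates A to D, against 9.71, 9.50 and 9.53 on Cel-239b replicates B to D. The treatments did not overlap, and replicates C and D, those with higher interferon genes, were the lowest. The log2 difference of *Krt19* was -1.23 (limma adjusted p = 0.0377), and -0.73 without miR-709 replicates C and D (adjusted p = 0.0531). The call was also lost when any array but miR-709 replicate A was left out (adjusted p 0.053 to 0.158), and the adjusted p ran from 0.00728 to 0.273 over all alternatives. *Krt7*, *Sox9* and *Epcam* had log2 differences of -0.29, -0.30 and 0.09 and did not pass. The only erythroid marker measured of 4, *Alas2*, had a linear signal of 77.2 to 85.0 on miR-709 arrays and 77.7 to 89.9 on Cel-239b arrays. The part of *Krt19*-expressing cells in the results for *Nprl3*, *Fnip2* and *Flcn* was not tested.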

How the data were processed

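Total RNA of 7 hepatocyte cultures was measured on 1-colour arrays. The authors deposited log2 signals per probe set, made in Partek with RMA, in versions not given in the sources used here. Raw scans were not analysed here. Of 28853 probe sets, 21789 carried 1 gene symbol, 1621 several and 5443 none, and 21698 of the single symbols were matched through their gene number. For 999 genes the brightest of several probe sets was used. The 19938 genes were fitted with limma (version 3.58.1, R version 4.3.3) as 2 groups, 2-sided, and the script was tested on simulated data. The 1-way ANOVA that the methods name was recomputed here on these 7 arrays without moderated variances and is called the methods' t-test. Its p-values were adjusted over all genes tested and are not those the study printed, for which no adjustment is named. The median standard error was 0.0758 on the log2 scale, and the number of arrays limits the precision.

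The members and the gene lists were chosen with earlier results of these data known. Named were the 10 genes, *Sec13*, up to 4 called genes with the largest difference per list, the 3 measured neighbours on each side of *Nprl3* and *Fnip2*, and the 3 genes nearest to each in pattern. Some genes of the lists are not reported here. No miR-709 sequence or target site was analysed here.

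Results were recomputed with the methods' t-test, with limma-trend and with array weights. Probe sets were also averaged per gene or tested singly, and dim genes were dropped below a mean log2 signal of 5 or 6. Arrays were rescaled by quantiles, by cyclic loess or by their medians. The replicate letter entered as a fixed block (the replicate block) or a random one, and each array was left out in turn. Leaving out miR-709 replicates C and D together was added after seeing the data.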

Additional observations from a re-analysis of the deposited data

Results flagged for a closer look

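The 4 miR-709 arrays were checked for an array far from the others in 32 of the genes named, and 1 gene had one. The 3 Cel-239b arrays are too few for this check. *Wdr24*, a GATOR2 subunit gene, had a log2 signal of 6.77 on miR-709 replicate C, where the other 3 miR-709 arrays had 6.64 to 6.65. The gap was 0.923 of the group's whole range, above Dixon's 95% critical value for 4 values. Chance alone gives a gap above that critical value in about 1 in 20 groups, and 32 genes were checked. The Cel-239b arrays of *Wdr24* ranged wider, at 6.43, 6.61 and 6.75.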

How the results depend on the processing

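No member changed direction where it was called, and the calls of members describe genes chosen with the same values known. *Nprl3* was called in all 20 alternatives, with log2 differences of -1.52 to -1.36. *Flcn* was called in 19 (-0.51 to -0.40) and *Fnip2* in 18 (-1.11 to -0.87). *Fnip2* was not called with the methods' t-test as adjusted here, whereas the study lists it as significantly lower by a p-value with no adjustment named. The other 7 genes were called in none of them. The count of 3 lower genes was 1 without miR-709 replicates C and D. Over all genes, 293 were lower and 361 higher. With the methods' t-test these were 113 lower and 113 higher, without miR-709 replicates C and D 92 and 76, and with single arrays left out 181 to 244 and 180 to 294. Among the 8638 genes no dimmer than a mean log2 signal of 6, 366 were lower and 555 higher. Cyclic loess gave 333 lower and 304 higher genes, and a further quantile normalization 334 and 335. Among the 77 pathway genes, 1 was lower (2 without Cel-239b replicate B) and 6 higher. The 6 were 0 with the methods' t-test, 1 without miR-709 replicates C and D, and 3 to 5 with single arrays left out (3 without miR-709 replicate D or Cel-239b replicate D). The 5 lysosome genes called higher were 0, 1 and 3 to 5 in the same order (3 without miR-709 replicate C or D or Cel-239b replicate D). Same-letter arrays deviated together at correlations of only 0.019, 0.017 and 0.046, so the letters were not taken as pairs. With the replicate block, 221 genes were lower and 180 higher, 3 pathway genes (*Gpnmb*, *Sqstm1* and *Tpp1*, all lysosome genes) were higher, and *Nprl3*, *Fnip2* and *Flcn* were still called. The cause of these changes was not tested, except that leaving out arrays leaves fewer samples. Small differences are limited by the 7 arrays.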
